A study of Mus musculus with 48 samples.

Results

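Hippocampal microglia of sham-treated juvenile mice were compared between 1 week and 1 day after the procedure, across all genes. The comparison uses 12 of the 48 libraries of the series, 6 at 1 week and 6 at 1 day, chosen by their sample labels alone. Of the 48526 genes in the table, 22987 had at least 1 read in these 12 libraries, and 9455 passed the filter for testing, a level of at least 5 RPM (reads per 1000000 reads on genes) in at least 6 libraries. The sham 1 week group was about postnatal day 28 and the sham 1 day group about postnatal day 22, because the procedure took place on postnatal day 21. All mice were C57BL/6, and each time point had its own 6 animals. The full study set mice given 8 Gy to the whole brain beside sham mice and sampled both at 2 h, 6 h, 1 day and 1 week. The irradiated 1 week and irradiated 1 day groups, also 6 animals each, are used below only to set their change over the same days beside that of the sham animals. What the sham procedure consisted of and on which days the groups were processed were not given in the sources used here, so age, time since the procedure and anything handled by time point cannot be told apart.

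Microglia are the resident macrophages of the brain. They depend on signalling through the Csf1 receptor and on transforming growth factor beta, and they carry a set of sensing, adhesion and lysosomal genes known as the homeostatic signature. In rodents they pass from proliferating early postnatal cells to a mature state over the first postnatal weeks, the period in which they also take part in pruning synapses in the hippocampus. Their immediate early genes, which code for transcription factors such as Fos, Jun and Egr1, respond within minutes to many stimuli, and their mitochondrial and ribosomal genes serve energy supply and protein synthesis.

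Cells were released by mild enzymatic digestion, sorted by flow cytometry on Cx3cr1, the fractalkine receptor of microglia, and their total RNA was made into bulk libraries with a Qiagen kit, the QIAseq FX single cell RNA kit. In the sham 1 week group the 6 libraries held 1889340 to 3856777 reads on genes. In the sham 1 day group libraries 1 to 5 held 1718013 to 3298739 reads, and library 6 held 175382, so that 1 read there equals 5.70 RPM. Sham 1 day library 6 had reads on 9641 genes, against 13954 to 16343 genes in the other 11 libraries, and the first principal component, with 41.4% of the variance, set it apart at a score of 122.8 where the others lay at or below 0. Counts of called genes over the whole table are therefore given with and without that library. Counts over a gene list are from all 12 libraries unless the text says otherwise. Xist was present in all 12 libraries, at 364.9 to 701.7 RPM, and 4 Y-linked genes together had 1 read, so the libraries showed no mixture of sexes. In bulk RNA, fewer cells of a type and less RNA per cell cannot be told apart.

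The sorted cells carried the microglial signature at both ages. Tmem119, a membrane protein of mature microglia, had 4305, 4875 and 5778 RPM (lowest, median and highest) in 1 week libraries, against 3951, 5375 and 6417 RPM in 1 day libraries. P2ry12, the ADP receptor with which microglial processes sense injury, had 4464, 5409 and 6941 RPM in 1 week libraries, against 4052, 4876 and 6551 RPM in 1 day libraries. Trem2, a lipid receptor of microglia, had 541.6, 604.6 and 739.4 RPM in 1 week libraries, against 359.2, 610.9 and 756.7 RPM in 1 day libraries. The groups overlapped for each of these genes. RPM values are not corrected for gene length, so levels are compared here between groups and not between genes.

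With all 12 libraries, limma called 0 of 9455 genes at an adjusted p under 0.05 (0%). At an unadjusted p under 0.05 there were 499 genes higher at 1 week (5.28%) and 215 lower (2.27%), 714 in all (7.55%), and the smallest adjusted p was 0.067. The libraries of the 2 groups did not overlap for 54 genes that were higher at 1 week (0.571%) and 20 that were lower (0.212%). Without sham 1 day library 6, limma called 14 of 9348 genes (0.15%), 9 higher at 1 week (0.0963%) and 5 lower (0.0535%). In that fit 961 genes had an unadjusted p under 0.05 (10.3%), 599 higher (6.41%) and 362 lower (3.87%), and the groups did not overlap for 113 higher genes (1.21%) and 44 lower ones (0.471%). Other tools run on all 12 libraries called 8 genes (voom on the recovered reads, 0.0846%) and 54 genes (limma with weights estimated for each library, 0.571%).

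The absence of calls came with differences that were small where reads were plentiful. The median absolute log2 difference was 0.212 over the 9455 genes, and 219 genes (2.316%) differed by more than 1 log2 unit. The 95% interval of the log2 difference lay wholly between -1 and 1 for 1738 of the 1827 genes with a mean of at least 100 RPM (95.13%). At 20 to 100 RPM that held for 3546 of 4424 genes (80.15%), and at 5 to 20 RPM for 1004 of 3204 (31.34%). A difference of 2-fold was thus within the interval for most genes of low level and could not be detected or set aside at this depth. For comparison, sham 1 day against sham 2 h, groups within about a day of age, gave 1437 of 9295 genes called (15.5%), 781 higher (8.4%) and 656 lower (7.06%) at 1 day, with a median absolute log2 difference of 0.430. Both comparisons contain the sham 1 day libraries. The sham 2 h group was itself divided, with summed immediate early genes at 32897 to 34617 RPM in libraries 1 to 3 and 11190 to 12464 RPM in libraries 4 to 6. It is therefore a limited gauge of how far groups of nearly 1 age differ. Irradiated 1 week against irradiated 1 day gave 2314 of 9530 genes called (24.3%), 1396 higher (14.6%) and 918 lower (9.63%) at 1 week, with a median absolute log2 difference of 0.434. The same span of days in sham animals therefore went with fewer called genes and smaller differences than either of these.

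The homeostatic microglia genes differed little between the ages. All 24 genes of this list were tested and 0 passed, also without sham 1 day library 6. The 24 log2 differences, 1 week minus 1 day, ran from -0.41 for the orphan receptor Gpr165 to 0.30 for the TGF-beta receptor subunit Tgfbr1, with a median of 0.009 (0.075 over all genes tested) and 13 of 24 positive. Without library 6 the median was -0.07 (0.0225 over all genes tested) and 6 of 24 were positive. In that fit 3 had an unadjusted p under 0.05 in the lower direction and 1 in the higher, against 3.87% and 6.41% of all genes tested. With 12 libraries 0 had such a p. Over all genes tested 59.71% were positive with 12 libraries and 53.15% without library 6. In the fit of 12 libraries the 95% intervals of all 24 lay between -1 and 1, and those of 18 lay between -0.5 and 0.5. The smallest adjusted p among them was 0.661.

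Among the individual members, the difference for Tmem119 was -0.10 with a 95% interval of -0.33 to 0.12. For P2ry12 it was 0.11, with an interval of -0.16 to 0.38. Cx3cr1, the receptor used for the sort, had 3705, 4961 and 5224 RPM in 1 week libraries, against 4807, 5424 and 5811 RPM in 1 day libraries, a difference of -0.16 (-0.35 to 0.03). Reads of Cx3cr1 cannot be told apart from those of the genes inside its annotated span, such as Wdr48 and Ttc21a, because strand use in counting was not stated, and P2ry12 and Csf1r each overlap another gene in the same way. Csf1r, the receptor on which microglial survival depends, had 6392, 8239 and 9902 RPM in 1 week libraries, against 4094, 8668 and 9725 RPM in 1 day libraries, a difference of 0.08 (-0.33 to 0.49). Its lowest 1 day value was that of sham 1 day library 6. Sall1, a transcription factor that maintains microglial identity, had 432.4, 548.4 and 755.1 RPM in 1 week libraries, against 433.3, 559 and 639.7 RPM in 1 day libraries, a difference of -0.003 (-0.31 to 0.30).

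Other markers of the cells lay equally close. Fcrls, an Fc receptor-like protein of mouse microglia, had 3839, 4867 and 5313 RPM in 1 week libraries, against 2885, 5801 and 6033 RPM in 1 day libraries. Siglech, a sialic acid-binding lectin, had medians of 1555 RPM in 1 week and 1629 RPM in 1 day libraries. Cst3, a secreted protease inhibitor, had medians of 82221 RPM in 1 week libraries and 78252 RPM in 1 day libraries. None of these groups of libraries were separate.

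**Figure D1:**
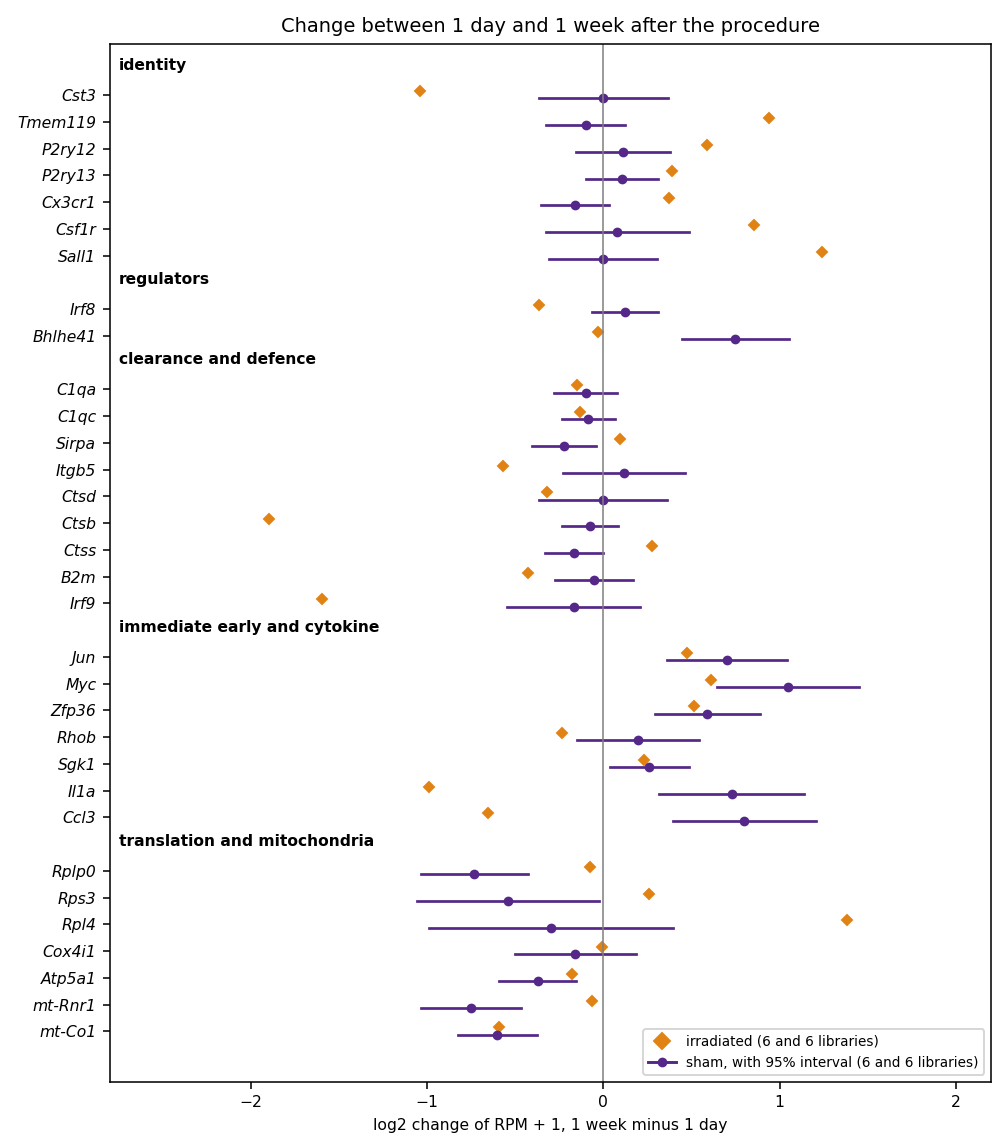
Log2 difference, 1 week minus 1 day, for 32 genes in 5 groups, in irradiated microglia (diamonds) and sham microglia (circles with 95% interval as bars), n = 6 libraries a group. The sham values of the identity genes lie close to 0, and Sall1 and Tmem119 lie to the right in irradiated animals at 1.24 and 0.94.

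Genes of immaturity or of reactive states did not separate the ages either. Of the 25 genes of early postnatal and axon-tract microglia, 19 were tested, 0 passed, and the median log2 difference was 0.03. Ctsl, a cathepsin high in young microglia, had 1184, 1546 and 1628 RPM in 1 week libraries, against 997.8, 1869 and 2198 RPM in 1 day libraries, a difference of -0.19 ± 0.16 (adjusted p = 0.805). Of the disease-associated microglia genes, a set described in mouse models of neurodegeneration, 25 of 26 were tested, 0 passed, and the median was 0.03. Apoe, the lipid carrier that leads this set, had 234.7, 393.9 and 591.2 RPM in 1 week libraries, against 211, 429.2 and 704.5 RPM in 1 day libraries. In irradiated animals 16 of the 25 disease-associated genes were called lower at 1 week than at 1 day, against 9.63% of all genes tested there.

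Proliferation was low at both ages. Of 32 mitosis genes, 3 passed the filter for testing and 0 passed the test. Mki67, which marks cycling cells, had 1.67, 6.37 and 18.5 RPM in 1 week libraries, against 0, 1.72 and 2.48 RPM in 1 day libraries, too few reads to be tested. The summed level of the 31 mitosis genes in the table was 68.7 to 133.5 RPM in 1 week libraries, against 41.5 to 71.5 RPM in 1 day libraries 1 to 5 and 108.3 RPM in library 6. In irradiated animals it was 176 to 284.4 RPM at 1 week, against 19.1 to 51.2 RPM at 1 day. The S phase list had 16 members tested, 0 passed, with a median log2 difference of 0.03. Mcm3, a subunit of the replicative helicase, had medians of 83.2 RPM in 1 week libraries and 73.7 RPM in 1 day libraries.

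Among the lists with at least 10 members tested, that of the immediate early genes had the highest median. Of its 32 genes 28 were tested, 24 had a positive log2 difference (59.71% of all genes tested did), and the median was 0.38. With 12 libraries 0 passed, and 10 had an unadjusted p under 0.05, all higher at 1 week, against 5.28% of all genes tested. Without sham 1 day library 6, 2 of 28 passed, Myc and Jun, where 0.0963% of all genes tested were called higher. In that fit the median was 0.48, and 17 had an unadjusted p under 0.05, all higher, against 6.41% of all genes tested. Their summed level was 14415 to 18595 RPM in 1 week libraries, against 9108 to 13256 RPM in 1 day libraries 1 to 5 and 19078 RPM in library 6. The deep 1 day libraries all lay under the 1 week range, and the shallow one lay above it. In sham 2 h libraries the same sum ranged more widely than at either later age, in 2 separate sets. It was 32897 to 34617 RPM in sham 2 h libraries 1 to 3 and 11190 to 12464 RPM in libraries 4 to 6. The sham 6 h libraries divided likewise, at 20778 to 22763 RPM in libraries 1 to 3 and 12324 to 14540 RPM in libraries 4 to 6. In irradiated 2 h libraries the sum was 21490 to 28300 RPM in libraries 1 to 3 and 11544 to 14079 RPM in libraries 4 to 6. In irradiated libraries it was 11956 to 16246 RPM at 1 week and 10859 to 16705 RPM at 1 day.

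Myc, a transcription factor of growth and biosynthesis (ENSMUSG00000022346, GRCm38 chromosome 15, 61985341 to 61990374), had 82.3, 128.9 and 164.2 RPM in 1 week libraries, against 47.2, 57.5 and 85.5 RPM in 1 day libraries. Its groups overlapped only through sham 1 day library 6, whose 85.5 RPM rests on 15 reads. The log2 difference was 1.05 ± 0.19 (SE, adjusted p = 0.067) with 12 libraries and 1.15 ± 0.18 (adjusted p = 0.024) without that library. Jun, a subunit of the AP-1 transcription factor (ENSMUSG00000052684, chromosome 4, 95049034 to 95052222), had 947.4, 992.5 and 1284 RPM in 1 week libraries, against 448.8, 641.3 and 992.1 RPM in 1 day libraries. Here too the highest 1 day value was that of library 6. The log2 difference of Jun was 0.70 ± 0.16 (adjusted p = 0.251) with 12 libraries and 0.83 ± 0.13 (adjusted p = 0.024) without library 6, and Junos, an antisense gene at the same place, shares its reads.

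Other immediate early genes had the same sign without passing. Egr1, a zinc finger transcription factor, had 845.5, 1062 and 1484 RPM in 1 week libraries, against 316.6, 672.6 and 1135 RPM in 1 day libraries, a difference of 0.72 ± 0.23 (adjusted p = 0.586). Fos, the partner of Jun, had 834.3, 1059 and 1503 RPM in 1 week libraries, against 579.4, 631.4 and 1119 RPM in 1 day libraries, a difference of 0.59 ± 0.18 (adjusted p = 0.539). Zfp36, which codes for tristetraprolin and marks cytokine mRNAs for decay, had 574.1, 720.7 and 900.3 RPM in 1 week libraries, against 341.1, 496.4 and 567.2 RPM in 1 day libraries. The groups did not overlap for Zfp36, and its difference was 0.59 ± 0.14 (adjusted p = 0.254). Junb ranged over 580.2 to 1718 RPM in 1 week libraries and 247.4 to 1346 RPM in 1 day libraries, with a difference of 1.06 ± 0.37 (adjusted p = 0.595), so its spread was as wide as its difference.

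**Figure D2:**
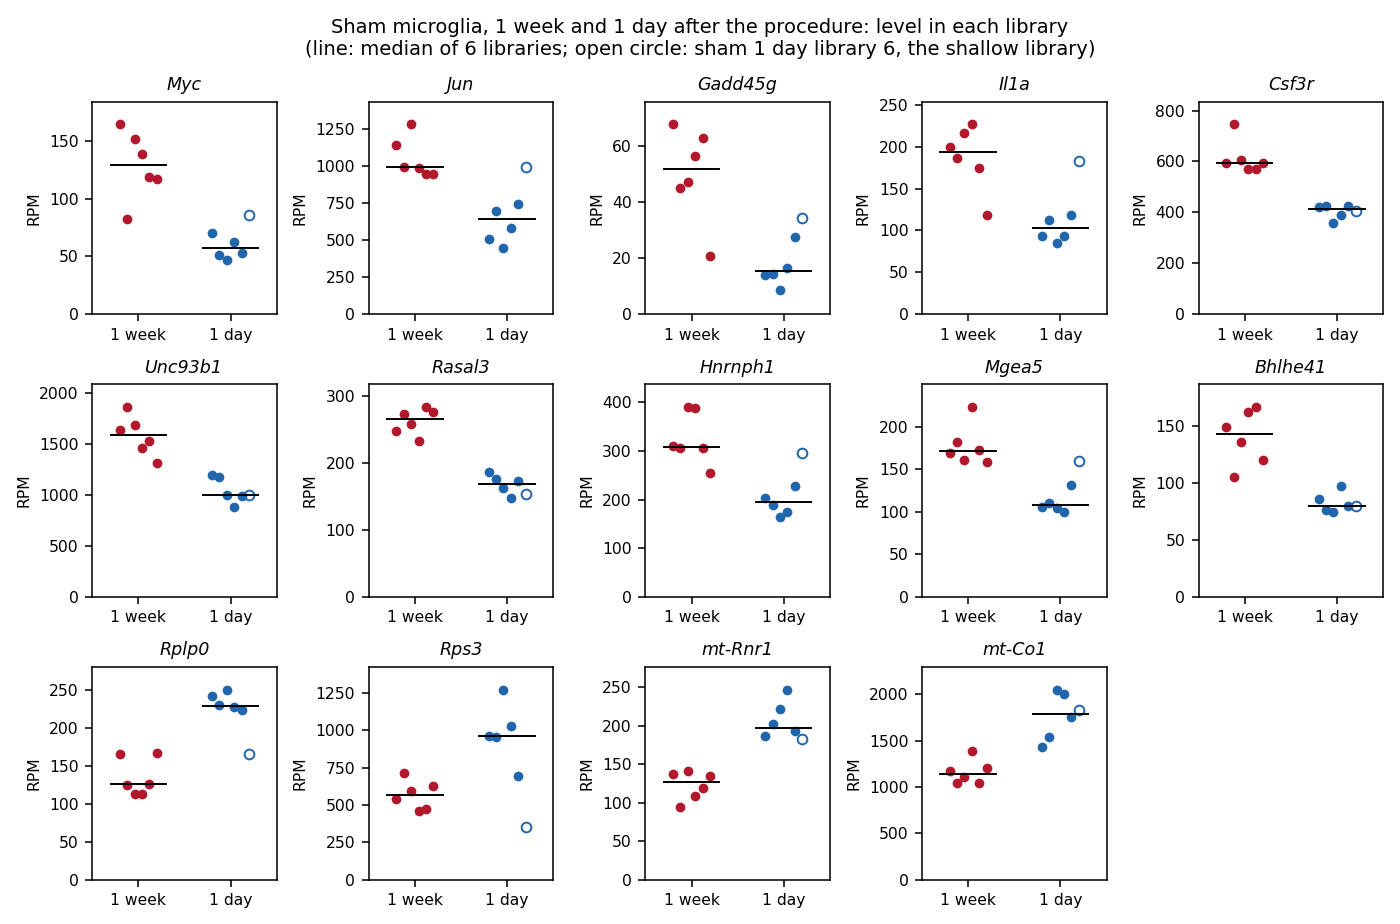
RPM in each library for 13 of the 14 genes called without sham 1 day library 6 and for Bhlhe41, sham 1 week left and sham 1 day right, with group medians as bars and library 6 as an open circle. For Myc, Jun, Hnrnph1 and Il1a the open circle lies above the other 1 day libraries, and for Rps3 it lies below them.

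Promoters of genes called without library 6 were searched for 2 sites in the 250 bases before each RefSeq start (GRCm38.p6). The AP-1 site TGANTCA is the same pattern on both strands. The related site TGACNTCA was searched on the strand of the gene only, so its counts leave out matches on the other strand. A promoter entry was found for 6 of the 9 genes higher at 1 week and for 2 of the 5 lower ones. TGANTCA was in 1 of these 6 promoters, that of Il1a, and in 6.75% of 32851 promoters in all. TGACNTCA was in 1 of the 6, that of Jun, and in 4.61% of all promoters. Neither was in the 2 promoters of lower genes. The 2 promoters with a match are shown because Jun codes for a protein that binds such sites, with the match in capitals. Jun lies at chr4:95052223-95052472 and Il1a at chr2:129309973-129310222, both on the minus strand, and the matches begin 45 bases and 12 bases before the start.
Jun: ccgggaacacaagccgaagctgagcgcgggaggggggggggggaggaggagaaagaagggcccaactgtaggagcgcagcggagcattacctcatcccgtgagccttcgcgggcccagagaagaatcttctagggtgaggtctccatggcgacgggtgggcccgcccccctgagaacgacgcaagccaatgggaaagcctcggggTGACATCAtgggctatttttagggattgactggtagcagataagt
Il1a: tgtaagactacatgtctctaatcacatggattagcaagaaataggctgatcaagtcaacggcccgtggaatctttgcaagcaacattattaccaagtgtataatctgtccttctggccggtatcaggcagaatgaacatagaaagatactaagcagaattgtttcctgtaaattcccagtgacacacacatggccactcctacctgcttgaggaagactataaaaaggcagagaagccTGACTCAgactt

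Cytokine and chemokine genes had the second highest median among these lists. Of 28 genes 18 were tested, 14 had a positive difference (59.71% of all genes tested did), and the median was 0.27. An unadjusted p under 0.05 was found for 7, all higher at 1 week, against 5.28% of all genes tested. With 12 libraries 0 passed, and without sham 1 day library 6 only Il1a did, where 0.0963% of all genes tested were called higher. Il1a, which codes for the alarm cytokine interleukin 1 alpha (chromosome 2, 129299610 to 129309972), had 118.3, 193.4 and 226.6 RPM in 1 week libraries, against 84.4, 103.2 and 182.5 RPM in 1 day libraries. Its log2 difference was 0.73 ± 0.19 (adjusted p = 0.405), and 0.87 ± 0.17 (adjusted p = 0.040) without library 6, whose value is the highest of the 1 day group and rests on 32 reads. Ccl3, a chemokine also known as MIP-1 alpha, had 90.8, 141.7 and 178.4 RPM in 1 week libraries, against 51.8, 81.8 and 96.9 RPM in 1 day libraries, a difference of 0.80 ± 0.19 (adjusted p = 0.254). Tnf and Il1b were near the lower limit of detection, with medians of 9.21 and 8.78 RPM in 1 week libraries, against 7.17 and 2.18 RPM in 1 day libraries.

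The transcription factors of adult microglia, a list that shares Jun, Fos, Egr1, Klf2 and Klf4 with the immediate early genes, also had a median above that of all genes tested. All 20 were tested, 16 had a positive difference (59.71% of all genes tested did), and the median was 0.17. An unadjusted p under 0.05 was found for 6, all higher, against 5.28% of all genes tested. With 12 libraries 0 passed. Without library 6 the median was 0.25 and 1 passed, Jun, where 0.0963% of all genes tested were called higher. The summed level was 11568 to 12994 RPM in 1 week libraries, against 9037 to 10756 RPM in 1 day libraries 1 to 5 and 13952 RPM in library 6. In sham 2 h libraries it was 9705 to 23393 RPM. Bhlhe41, a basic helix-loop-helix repressor of the circadian and macrophage programmes (ENSMUSG00000030256, chromosome 6, 145858243 to 145865558), had 105.3, 143 and 167 RPM in 1 week libraries, against 74.5, 80.0 and 97.9 RPM in 1 day libraries. Its groups did not overlap, library 6 included, and its difference was 0.75 ± 0.14 (adjusted p = 0.095 with 12 libraries, 0.051 without library 6). It was the only gene called when all 48 libraries shared 1 estimate of the spread (adjusted p = 0.0054). Irf8, which drives microglial development, had medians of 1179 RPM in 1 week and 1087 RPM in 1 day libraries, a difference of 0.12 ± 0.09 (adjusted p = 0.768).

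TGF-beta signalling, on which microglial identity depends, had 17 of 28 genes tested, 16 of them with a positive difference, and a median of 0.15. Over all genes tested 59.71% were positive. With 12 libraries 0 passed, and 3 had an unadjusted p under 0.05, all higher, against 5.28% of all genes tested. Without library 6 the median over 16 genes was 0.07. The summed level was 6246 to 6945 RPM in 1 week libraries, against 5596 to 6150 RPM in 1 day libraries, without overlap. In sham 2 h libraries the same sum was 7112 to 7602 RPM, above all 1 week libraries. In sham 6 h libraries it was 5960 to 7383 RPM, so the sum did not rise steadily over the sham times. Tgfbr1, the type I receptor, had 1036, 1194 and 1357 RPM in 1 week libraries, against 598.9, 1074 and 1183 RPM in 1 day libraries, a difference of 0.30 ± 0.14 (adjusted p = 0.661). Ski, a repressor of SMAD signalling, had 854.5, 1010 and 1163 RPM in 1 week libraries, against 675.2, 754.1 and 963.6 RPM in 1 day libraries, a difference of 0.34 ± 0.11 (adjusted p = 0.586).

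The other 6 genes higher at 1 week without library 6 serve unlike functions. Csf3r, the receptor of granulocyte colony-stimulating factor (ENSMUSG00000028859, chromosome 4, 126024550 to 126044440), had 571.2, 593.3 and 746 RPM in 1 week libraries, against 358.6, 412 and 425.3 RPM in 1 day libraries, without overlap. Its log2 difference was 0.60 ± 0.10 (adjusted p = 0.067), and 0.60 (adjusted p = 0.034) without library 6. Unc93b1, the chaperone that carries nucleic acid-sensing Toll-like receptors to endosomes (ENSMUSG00000036908, chromosome 19, 3935186 to 3949340), had 1308, 1585 and 1860 RPM in 1 week libraries, against 881.6, 1000 and 1195 RPM in 1 day libraries. The groups of Unc93b1 did not overlap either, with a difference of 0.60 ± 0.10 (adjusted p = 0.067) and 0.59 (adjusted p = 0.034) without library 6. Among its client receptors, Tlr7 had medians of 228.6 RPM in 1 week and 270.6 RPM in 1 day libraries. Tlr9 had 106 RPM in 1 week and 106.2 RPM in 1 day libraries, so neither of these shared the pattern. Of the 22 Toll-like receptor and adaptor genes tested, 0 passed with 12 libraries. Only Unc93b1 did without library 6, where 0.0963% of all genes tested were called higher. With 12 libraries 2 of the 22, Unc93b1 among them, were higher without overlap, against 0.571% of all genes tested.

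Rasal3, a Ras GTPase-activating protein of blood cells (chromosome 17, 32390659 to 32403583), had 233.4, 266.1 and 284.2 RPM in 1 week libraries, against 147.8, 168.6 and 187 RPM in 1 day libraries, without overlap. Its difference was 0.65 ± 0.11 (adjusted p = 0.067), and 0.63 (adjusted p = 0.034) without library 6. Hnrnph1, a splicing factor, had 255, 308.4 and 390.1 RPM in 1 week libraries, against 163.6, 195.6 and 296.5 RPM in 1 day libraries, a difference of 0.76 (adjusted p = 0.034) without library 6 and 0.65 (adjusted p = 0.254) with it. Mgea5, the enzyme that removes O-linked N-acetylglucosamine from proteins, had 158.4, 171.1 and 223.2 RPM in 1 week libraries, against 99.9, 108.2 and 159.7 RPM in 1 day libraries. Gadd45g, a stress-inducible gene, had 20.8, 51.8 and 67.8 RPM in 1 week libraries, against 8.73, 15.5 and 34.2 RPM in 1 day libraries. For Hnrnph1, Mgea5 and Gadd45g the highest 1 day value was that of library 6, and without it the adjusted p of both Mgea5 and Gadd45g was 0.049.

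Splicing and chaperone genes had list medians above that of all genes tested. Of the 14 splicing and nuclear RNA genes tested, 12 had a positive difference (59.71% of all genes tested did), the median was 0.25, and 0 passed. An unadjusted p under 0.05 was found for 4, all higher, against 5.28% of all genes tested. Without library 6, 11 were positive (53.15% of all genes tested) and 0 passed. In that fit 6 had an unadjusted p under 0.05, against 10.3% of all genes tested in either direction. Ddx5, an RNA helicase, had 873.9, 960.4 and 1035 RPM in 1 week libraries, against 541.3, 787.3 and 1032 RPM in 1 day libraries, a difference of 0.35 ± 0.13 (adjusted p = 0.595). Of the 20 heat shock and chaperone genes tested, 15 had a positive difference (59.71% of all genes tested did), the median was 0.19, and 0 passed. Hsp90b1, the chaperone of the endoplasmic reticulum also called Grp94, had 551.2, 647.5 and 698.1 RPM in 1 week libraries, against 419.6, 471.9 and 530.3 RPM in 1 day libraries. Its groups did not overlap, and its difference was 0.44 ± 0.10 (adjusted p = 0.251). Hspa5, another chaperone of the same compartment, lay at medians of 767.3 RPM in 1 week and 689.6 RPM in 1 day libraries, a difference of 0.10 ± 0.09 (adjusted p = 0.800).

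**Figure D3:**
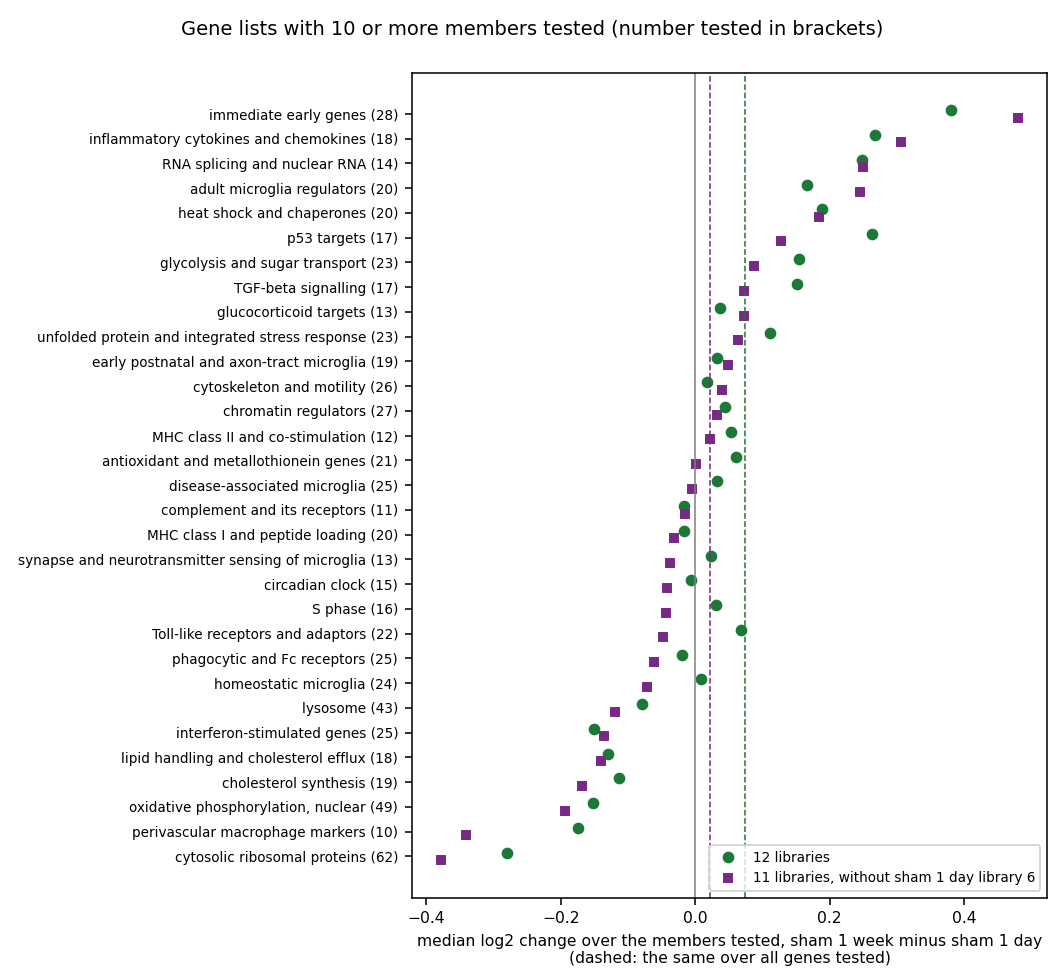
Median log2 difference, sham 1 week minus sham 1 day, over the tested members of each list with at least 10 of them, with 12 libraries (circles) and without sham 1 day library 6 (squares). Dashed lines mark the median of all genes tested, 0.075 and 0.0225; the immediate early genes lie highest and the cytosolic ribosomal proteins lowest in both fits.

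The cytosolic ribosomal proteins lay at the other end. Of 78 genes 62 were tested, 15 had a positive difference, and the median was -0.28, the lowest of the 31 lists with at least 10 members tested. Over all genes tested 59.71% were positive. With 12 libraries 0 passed, 15 had an unadjusted p under 0.05 in the lower direction and 1 in the higher, against 2.27% and 5.28% of all genes tested. Without library 6 the median was -0.38, and 3 of 61 passed, all lower at 1 week, against 0.0535% of all genes tested. In that fit 25 had an unadjusted p under 0.05 in the lower direction, against 3.87% of all genes tested. The summed level was 4265 to 5643 RPM in 1 week libraries, against 5591 to 7934 RPM in 1 day libraries 1 to 5 and 4522 RPM in library 6. In sham 2 h libraries it was 3623 to 5796 RPM and in sham 6 h libraries 4080 to 6632 RPM, both overlapping the 1 week range. In irradiated animals it was 4637 to 7475 RPM at 1 week and 5399 to 6881 RPM at 1 day, and the list's median there was -0.05. Ribosomal protein genes have many processed pseudogenes, so the share of reads that counting gave to each is uncertain.

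Rplp0, a stalk protein of the large ribosomal subunit (chromosome 5, 115559467 to 115563727), had 112.2, 125.4 and 166.7 RPM in 1 week libraries, against 165.4, 228.3 and 249.7 RPM in 1 day libraries. Library 6 gave the lowest 1 day value, within the 1 week range, and the difference was -0.73 ± 0.14 (adjusted p = 0.107), or -0.82 (adjusted p = 0.033) without it. Rps3, of the small subunit, had 456.5, 565.7 and 713.6 RPM in 1 week libraries, against 353.5, 960.7 and 1271 RPM in 1 day libraries, a difference of -0.54 (adjusted p = 0.641), or -0.78 (adjusted p = 0.034) without library 6. For Rps3 library 6 held the lowest value of all 12. Rps3a1 did not pass in either fit, but its groups did not overlap, at 130.2, 137.4 and 151.8 RPM in 1 week libraries, against 172.9, 188.2 and 248.5 RPM in 1 day libraries, a difference of -0.49 ± 0.12 (adjusted p = 0.254). Eef1a1, the factor that brings aminoacyl-tRNA to the ribosome and no member of the list, had 455.2, 524.1 and 609.3 RPM in 1 week libraries, against 439, 792.3 and 884.9 RPM in 1 day libraries (adjusted p = 0.595).

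Transcripts of the mitochondrial genome took a smaller share of the reads at 1 week. All 37 mitochondrial genes together held 1.42%, 1.80% and 2.36% of reads in 1 week libraries, against 1.53%, 3.85% and 4.76% in 1 day libraries, a mean difference of -1.66 percentage points (exact two-sided permutation test, p = 0.0173). The lowest 1 day share was that of library 6, and without it the 1 day range was 2.46% to 4.76% and the difference -2.05 points (exact permutation p = 0.00433, the smallest that 6 against 5 libraries can give). Most of these reads belong to mt-Rnr2, the large ribosomal RNA, which had 11720 to 20694 RPM in 1 week libraries, against 11358 to 43749 RPM in 1 day libraries. With mt-Rnr2 left out, a choice made after seeing the data, the share was 0.246% to 0.299% in 1 week libraries, against 0.301% to 0.419% in 1 day libraries, library 6 included. These groups did not overlap (difference -0.0967 points, exact permutation p = 0.00217, the smallest that 6 against 6 libraries can give). In sham 2 h libraries the share without mt-Rnr2 was 0.189% to 0.367%, overlapping both groups, and in sham 6 h libraries 0.258% to 0.365%. The whole mitochondrial share was 3.05% to 9.34% in sham 2 h and 3.09% to 7.12% in sham 6 h libraries.

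Of the 9 mitochondrial genes tested, 8 had a negative difference, where 59.71% of all genes tested were positive, and 0 passed with 12 libraries. An unadjusted p under 0.05 was found for 5, all lower, against 2.27% of all genes tested. mt-Rnr1, the small ribosomal RNA, had 93.8, 126.7 and 141.3 RPM in 1 week libraries, against 182.5, 197.3 and 246.5 RPM in 1 day libraries, without overlap. Its difference was -0.75 ± 0.13 (adjusted p = 0.067), and -0.78 (adjusted p = 0.034) without library 6. mt-Co1, the catalytic subunit of cytochrome c oxidase, had 1041, 1145 and 1387 RPM in 1 week libraries, against 1435, 1794 and 2051 RPM in 1 day libraries, also without overlap. Its difference was -0.60 ± 0.11 (adjusted p = 0.067), and -0.59 (adjusted p = 0.034) without library 6. mt-Cytb, of respiratory complex III, had medians of 343.4 RPM in 1 week and 436.2 RPM in 1 day libraries, a difference of -0.33 ± 0.10 (adjusted p = 0.548). mt-Nd5, of complex I, had 210 RPM in 1 week and 191.9 RPM in 1 day libraries. Nuclear copies of mitochondrial sequence may share some of these reads.

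The nuclear genes of oxidative phosphorylation lay on the same side with smaller values. Of 49 tested, 16 had a positive difference (59.71% of all genes tested did), the median was -0.15, and 0 passed in either fit. An unadjusted p under 0.05 was found for 5 in the lower direction and 1 in the higher, against 2.27% and 5.28% of all genes tested. The summed level was 2907 to 3411 RPM in 1 week libraries, against 3324 to 3866 RPM in 1 day libraries 1 to 5 and 2959 RPM in library 6. In sham 2 h libraries it was 2337 to 2718 RPM, below the 1 week range, and in sham 6 h libraries 2352 to 3382 RPM. Atp5a1, the alpha subunit of ATP synthase, had 240.8, 259.4 and 300.7 RPM in 1 week libraries, against 305.1, 338.6 and 371.4 RPM in 1 day libraries. Its groups did not overlap, and its difference was -0.37 ± 0.10 (adjusted p = 0.472). Cox4i1, a nuclear subunit of cytochrome c oxidase, had 348.7, 408.9 and 555.2 RPM in 1 week libraries, against 279.4, 527.5 and 566.9 RPM in 1 day libraries. Glycolysis genes had a median of 0.15 over 23 tested, and 0 passed. Slc2a5, the fructose transporter of microglia, had medians of 678 RPM in 1 week and 615.6 RPM in 1 day libraries.

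**Figure D4:**
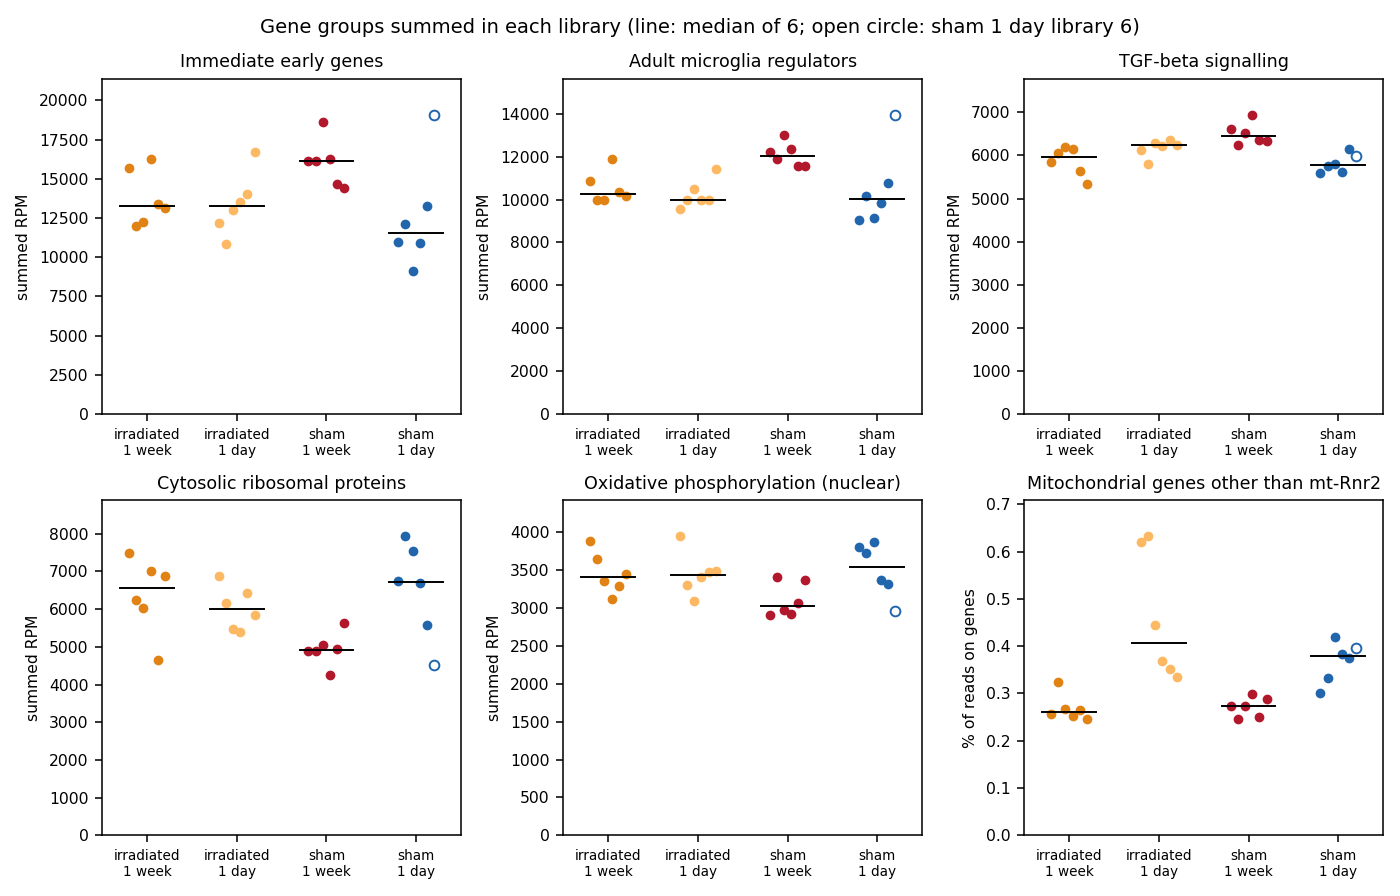
Levels of 6 groups of genes in each library, as summed RPM, or for mitochondrial genes other than mt-Rnr2 as percent of reads on genes. From left to right are irradiated 1 week, irradiated 1 day, sham 1 week and sham 1 day animals, with sham 1 day library 6 as an open circle. For the immediate early genes sham 1 day libraries 1 to 5 lie at 9108 to 13256 RPM, under the sham 1 week range of 14415 to 18595 RPM.

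Genes of clearance and defence were close to each other at the 2 ages, though most lysosome genes lay slightly lower at 1 week. The lysosome list had 43 members tested, 0 passed, and a median of -0.08. Of the 43, 12 were positive (59.71% of all genes tested were). An unadjusted p under 0.05 was found for 4 in the lower direction and 1 in the higher, against 2.27% and 5.28% of all genes tested. Without library 6 the median was -0.12 and 7 were positive (53.15% of all genes tested). In that fit 5 had an unadjusted p under 0.05 in the lower direction and 1 in the higher, against 3.87% and 6.41%. Ctsd and Ctsb, lysosomal proteases, had medians of 6753 and 3147 RPM in 1 week libraries, against 7563 and 3355 RPM in 1 day libraries. Complement genes had a median of -0.02 over 11 tested, and C1qa, which tags synapses for removal, had 2326, 2610 and 2749 RPM in 1 week libraries, against 2229, 2852 and 3026 RPM in 1 day libraries. Phagocytic and Fc receptors had a median of -0.02 over 25 tested, and MHC class I genes had the same over 20 tested, with 0 passing in either list. For B2m, the light chain of MHC class I, the medians were 980.7 RPM in 1 week and 1018 RPM in 1 day libraries.

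The interferon-stimulated genes had a median of -0.15 over 25 tested, with 6 positive (59.71% of all genes tested were) and 0 passing. In irradiated animals 19 of the 25 were called lower at 1 week than at 1 day, against 9.63% of all genes tested there, and the median was -1.18. MHC class II genes had a median of 0.05 over 12 tested, cholesterol synthesis genes -0.11 over 19, glucocorticoid targets 0.04 over 13 and circadian clock genes -0.007 over 15, with 0 passing in each. Per1, a clock gene that also responds to glucocorticoids, had 17.4, 57.6 and 71.8 RPM in 1 week libraries, against 56.0, 86.3 and 165.4 RPM in 1 day libraries, a difference of -0.80 ± 0.32 (adjusted p = 0.603). Actb, cytoskeletal actin, had medians of 5437 RPM in 1 week and 6682 RPM in 1 day libraries, a difference of -0.22 ± 0.10 (adjusted p = 0.663). Of the 31 lists with at least 10 members tested, 26 had a median within 0.2 of 0.

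Markers of other cells were low and overlapped for most types. The summed level of 20 neuron markers was 20.64 to 50.01 RPM in 1 week libraries, against 36.4 to 49.5 RPM in 1 day libraries, and Gad2, Neurod2, Neurod6 and Nefm were at 0 in all 12. Astrocyte markers summed to 289.7 to 382.8 RPM in 1 week libraries, against 248.6 to 384.1 RPM in 1 day libraries, with 80.1% of it from Slc1a3, while Gfap had at most 2.38 RPM in 1 week and 0.993 RPM in 1 day libraries. Endothelial markers summed to 453.2 to 609.7 RPM in 1 week libraries, against 467.1 to 541.7 RPM in 1 day libraries, with 76.5% from Bsg, while Cldn5 reached 3.14 RPM in 1 week and 1.49 RPM in 1 day libraries. Oligodendrocyte markers summed to 445.2 to 683.9 RPM in 1 week libraries, against 517.5 to 589 RPM in 1 day libraries. Perivascular macrophage markers summed to 832.5 to 1417 RPM in 1 week libraries, against 853.7 to 1371 RPM in 1 day libraries, with 60.7% from Stab1. Mrc1 had medians of 69.6 RPM in 1 week and 82.9 RPM in 1 day libraries. Over the 10 perivascular markers tested the median log2 difference was -0.17, with 4 positive and 0 passing. Without library 6 it was -0.34, with 2 positive and 0 passing. Over all genes tested 59.71% were positive with 12 libraries and 53.15% without library 6.

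Lymphocyte markers summed to 681.4 to 933.1 RPM in 1 week libraries, against 416.2 to 877.5 RPM in 1 day libraries, with 88% from Ighm and 12 of 24 at 0, among them Cd3e. Red cell and platelet markers summed to 15.4 to 159.6 RPM in 1 week libraries, against 27.0 to 69.8 RPM in 1 day libraries, and mural cell markers to 1.06 to 12.4 RPM in 1 week libraries, against 0 to 12.4 RPM in 1 day libraries. Neural progenitor markers summed to 50.6 to 143.6 RPM in 1 week libraries, against 44.0 to 451.5 RPM in 1 day libraries, with 84.7% from Sox4. Choroid plexus and ependyma markers, 93.7% of them Ttr, summed to 159 RPM in 1 week library 2 and 1.06 to 7.13 RPM in the other 1 week libraries, against 302.2 and 220.8 RPM in 1 day libraries 1 and 5 and 3.47 to 11.4 RPM in the other 1 day libraries. Monocyte and neutrophil markers did not overlap, at 601.3 to 781.2 RPM in 1 week libraries, against 409.8 to 501.8 RPM in 1 day libraries, but 91.2% of that sum was Csf3r itself. Of the 21 markers 9 were at 0 in all 12 libraries, among them S100a8, S100a9, Ly6g, Ly6c2, Retnlg, Lcn2, Ngp and Camp. Ccr2, a receptor of monocytes, had 4.46, 8.75 and 23.5 RPM in 1 week libraries, against 4.06, 6.18 and 10.6 RPM in 1 day libraries.

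Setting irradiated animals beside the sham animals showed that the same days went with another pattern there. The change from 1 day to 1 week differed between irradiated and sham animals for 737 of 10332 genes (7.13%) by limma's interaction test, 327 with a larger value in irradiated animals (3.16%) and 410 with a smaller one (3.97%). Without sham 1 day library 6 the number was 1366 of 10269 (13.3%). Of the 2240 genes called in the irradiated animals and also tested in sham, 1288 (57.5%) had the same sign in sham. That held for 883 of the 1360 called higher (64.93%) and 405 of the 880 called lower (46.02%). In sham 59.71% of all genes tested were positive. Without sham 1 day library 6 the same sign was found for 1007 of 2233 (45.1%), 667 of 1357 called higher (49.15%) and 340 of 876 called lower (38.81%). There 53.15% of all genes tested in sham were positive. The share of genes with the same sign thus depends on that library. Over these 2240 genes the median absolute log2 difference was 0.936 in irradiated animals and 0.194 in sham animals.

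Of the 24 homeostatic genes, 17 were called higher and 2 lower in irradiated animals at 1 week than at 1 day. Over all genes tested there, 14.6% were called higher and 9.63% lower. The change differed from that of sham animals for 11 of the 24, against 7.13% of all genes tested. Sall1 rose by 1.24 in irradiated animals (adjusted p = 0.00038) against a difference of -0.003 in sham animals (difference of changes 1.24 ± 0.26, adjusted p = 0.0037). Tmem119 rose by 0.94 in irradiated animals (adjusted p = 0.00066) against -0.10 in sham animals (1.04 ± 0.20, adjusted p = 0.0023). Cx3cr1 rose by 0.37 in irradiated animals (adjusted p = 0.011) against -0.16 in sham animals (0.53 ± 0.13, adjusted p = 0.0099). For these genes the change over the week was larger in irradiated animals than in sham animals.

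Of the 14 genes called in sham animals without library 6, 12 did not overlap between the groups in that set of libraries. The 14 were chosen in those same libraries, where 1.21% of all genes tested did not overlap and were higher and 0.471% lower. With all 12 libraries 5 of the 14 did not overlap, against 0.571% of all genes tested higher and 0.212% lower. In irradiated animals 9 of the 14 had the same sign, 3 of them called there (Jun, Rasal3 and mt-Co1). Il1a was called in the opposite direction. Of all genes tested in irradiated animals 24.3% were called. Jun rose by 0.47 (adjusted p = 0.033) and Rasal3 by 0.90 (adjusted p = 0.016) in irradiated animals. mt-Co1 fell by 0.59 in irradiated animals (adjusted p = 0.0066), against a difference of -0.60 in sham animals, and the difference between these changes was 0.01 ± 0.18 (adjusted p = 0.983). The share of reads on mitochondrial genes other than mt-Rnr2 likewise was 0.245% to 0.325% in irradiated 1 week libraries, against 0.336% to 0.633% in irradiated 1 day libraries, without overlap (exact permutation p = 0.00217). The whole mitochondrial share went the other way in irradiated animals, at 2.56% to 4.38% at 1 week, against 1.52% to 3.19% at 1 day (exact permutation p = 0.0325), and the change of mt-Rnr2 differed between irradiated and sham animals by 1.69 ± 0.41 (adjusted p = 0.016).

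Il1a fell by 0.99 in irradiated animals (adjusted p = 0.0025), and the difference from the sham change was -1.72 ± 0.29 (adjusted p = 0.00058). Gadd45g had a value of -0.50 in irradiated animals (adjusted p = 0.189) against 1.38 in sham animals, and the changes differed by -1.88 ± 0.44 (adjusted p = 0.0091). Mgea5 had -0.42 in irradiated animals against 0.59 in sham animals, and these differed by -1.01 ± 0.21 (adjusted p = 0.0034). Bhlhe41 had -0.03 in irradiated animals against 0.75 in sham animals, a difference of -0.78 ± 0.21 (adjusted p = 0.021). For the other 11 of the 14 genes, Myc, Csf3r, Unc93b1, the ribosomal protein genes and mt-Rnr1 among them, the interaction did not pass with all libraries. Without sham 1 day library 6 it passed for 7 of the 14, against 13.3% of all genes tested. The 14 were chosen on sham libraries that this interaction also uses.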

How the data were processed

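Bulk RNA sequencing measured hippocampal microglia in 12 sham libraries, 6 at 1 week and 6 at 1 day. The submitters' processing notes name STAR 2.6.1d, featureCounts 1.5.1, bcl2fastq 2.20.0 and FastQC 0.11.8, and the mouse builds mm10 and GRCm38. Which annotation was counted, and whether by strand, is not given in the sources used here. The authors deposited RPKM per gene, with the length taken from gene start to gene end. Most deposited RPKM values had been divided by the total of another library of the series, and 2.05% by that of their own. Multiplying back gave whole reads for 719081 of 719081 values above 0 (tolerance 0.001 reads), and reads per 1000000 reads on genes (RPM) were computed from each library's own total. The match was ambiguous for 95 genes with up to 7 reads.

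Genes with at least 5 RPM in at least 6 of the 12 libraries were tested on log2(RPM + 1) with limma 3.58.1 in R 4.3.3 (eBayes with trend and robust, two-sided, Benjamini-Hochberg over all genes tested, threshold 0.05). The pseudocount of 1 RPM understates changes of low genes. Errors after ± are standard errors of the log2 difference, and n = 6 libraries a group. Irradiated animals and the interaction were fitted in the same way. Shares of reads were compared with exact permutation tests in scipy 1.17.1. The fits were tested on simulated data.

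The comparison, the gene lists and the tests were chosen with earlier results of these data known. Genes were to be named where they passed with 12 libraries and without sham 1 day library 6, which none did, and otherwise per list, up to 4 that passed or 2 of the highest level, with 6 microglial markers always named. Some genes that the rule or the lists hold are not reported here. The genes called without that library, Bhlhe41 and other genes outside this rule were chosen after their values were seen. Alternatives changed the pseudocount, filter, scaling, fit and libraries. Where a symbol had more than 1 gene ID, as for Fth1, the ID with more reads was used. A planned test of summed marker levels was replaced by their ranges. Same-numbered libraries of the 2 groups came from different animals.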

Additional observations from a re-analysis of the deposited data

Results flagged for a closer look

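Among 138 groups of 6 values, 13 held a library farther from the others than Dixon's 95% limit, and chance marks about 1 in 20 groups. In the sham 1 week group these were the summed choroid plexus and ependyma markers in library 2, at 159 RPM with the next at 7.13 RPM (1 day libraries 1 and 5 had 302.2 and 220.8 RPM), and Cx3cr1 in library 3, at 3705 RPM with the next at 4670 RPM. They were also Csf3r in library 2 (746 RPM), Mgea5 in library 4 (223.2 RPM), and Cox4i1 in library 6 (555.2 RPM). In the sham 1 day group library 6 stood apart for the summed adult microglia regulators (13952 RPM), Irf8 (1266 RPM), Il1a (182.5 RPM), Irf9 (296.5 RPM) and, at the low end, Rplp0 (165.4 RPM). Library 4 stood apart for the summed neural progenitor markers (451.5 RPM) and P2ry13 (2377 RPM), and library 3 for the summed S phase genes (696.2 RPM).

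The change from 1 day to 1 week differed between irradiated and sham animals for 16 of 52 genes examined (limma interaction, adjusted over all genes tested). Over all genes tested it differed for 737 of 10332 (7.13%). The 52 include genes chosen after their values were seen, so the 2 shares are not a like comparison. It was larger in irradiated animals for the microglial identity genes Cx3cr1 (0.53 log2), Tmem119 (1.04) and Sall1 (1.24), the protease gene Ctss (0.44), the ribosomal protein gene Rpl4 (1.68) and mt-Rnr2 (1.69). It was smaller in irradiated animals for the regulators Irf8 (-0.49), Bhlhe41 (-0.78) and Ski (-0.91), the cytokine genes Il1a (-1.72) and Ccl3 (-1.45), and the interferon signalling gene Irf9 (-1.43). The same held for Gadd45g (-1.88), Mgea5 (-1.01), the chaperone gene Hsp90b1 (-1.02) and the protease gene Ctsb (-1.82).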

How the results depend on the processing

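The count of called genes, 0 with all 12 libraries, was recomputed in 27 alternatives, 24 of them planned, and 9 gave a call. Leaving out each library in turn gave 0 to 14, and the 14 came from leaving out sham 1 day library 6. A filter of 20 RPM gave 6, voom on the recovered reads 8, limma with library weights 54 (39 higher, 15 lower), all 48 libraries in 1 fit 1 (Bhlhe41) and the RPKM as deposited 1. All 14 genes were among the 54, and all 8 voom genes were among the 14. Of alternatives added after seeing the data, all 48 libraries less library 6 gave 1, voom less library 6 gave 10, and leaving out library 6 and sham 1 week library 3 gave 5. The deposited RPKM moved the median log2 difference of all genes to 0.503 and turned the sign of 4 of the 14 genes, Rplp0, Rps3 and mt-Co1 among them, and relative to all genes that of the nuclear oxidative phosphorylation list (0.17 as deposited, -0.23 with own totals in RPM). The other 10 of the 14 genes and Bhlhe41 had the same sign in all 27. Other pseudocounts, no filter, median ratio scaling, totals without mitochondrial genes and RPKM with own totals gave 0. The interaction count was 737 with all libraries and 1366 without library 6. The correlations of same-numbered libraries ran from -0.12 to 0.09, so the numbers do not pair animals, and the fit with a replicate block called 0 genes. A covariate for sex was not run, since 1 sex pattern was seen. The share of called sham genes with the same sign in irradiated animals could not be computed with 0 called. Low reads limit genes under 20 RPM most.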

Other observations

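Several gene groups not described above had 0 members passing in either fit. The p53 targets had a median of 0.26 over 17 tested, against 0.075 over all genes, and 0.13 without sham 1 day library 6, and Btg2, an antiproliferative target, had 879, 1063 and 1261 RPM in 1 week libraries, against 605.4, 918.5 and 994 RPM in 1 day libraries. The unfolded protein response genes had a median of 0.11 over 23 tested, the antioxidant genes 0.06 over 21, the chromatin regulators 0.04 over 27, and the cytoskeleton and motility genes 0.02 over 26. Lipid handling genes had a median of -0.13 over 18 tested. The synapse and neurotransmitter sensing genes had 0.02 over 13, and Kcnk13, the potassium channel that sets the resting potential of microglia, had 54.7, 60.8 and 74.7 RPM in 1 week libraries, against 75.1, 95.3 and 120.7 RPM in 1 day libraries. The groups did not overlap for Kcnk13, and its difference was -0.58 ± 0.15 (limma, adjusted p = 0.372).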
